A study of Mus musculus with 15 samples.

Results

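The comparison covers tibialis anterior, a fast muscle of the lower hind limb, from female C57BL6/J mice that all received lisinopril, 4 with a melanoma (melanoma plus lisinopril) and 3 with a mock injection in its place (lisinopril). It uses 7 of the 15 libraries of the series and all 11254 genes with at least 1 TPM (a level scaled for gene length and for the library's total) in at least 3 of the 7. The labels give an age of 7 weeks and the series' design text places collection 49 days after implantation. As 7 weeks are 49 days, both cannot hold if the age is that at collection, which the labels do not say. The design text calls the tumour a xenograft and says that it induces cachexia, the wasting of muscle and fat, while the labels name a C57BL6/J host and neither the tumour line nor the dose or schedule of the drug. Their RNA extraction text also mentions another model, LLC cells at 3 weeks, which matches neither the melanoma nor day 49. The other 8 libraries, 4 control and 4 melanoma, come from mice without the drug and enter only where the tumour effect is set beside that in untreated mice.

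In cachexia, cytokines and glucocorticoids reach the muscle fibre and turn its balance from protein synthesis to breakdown. Interleukin-6 type cytokines act through the shared receptor subunit gp130 and the transcription factor STAT3, and switch on acute phase genes that are otherwise best known from the liver. Glucocorticoids and low insulin signalling release FoxO factors, which raise ubiquitin ligases and autophagy genes. Lisinopril inhibits angiotensin-converting enzyme, which makes angiotensin II, a peptide that raises blood pressure and can itself promote muscle loss.

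The 7 libraries held the muscle they are labelled with. Skeletal muscle fibre markers summed to 122600, 110000 and 139100 TPM in lisinopril 1, 2 and 3 and 118400, 113500, 128400 and 142800 TPM in melanoma plus lisinopril 1 to 4, and the fast fibre myosin Myh4 had at least 6017 TPM in each. Each library correlated with the other members of its group at a mean of 0.963 or above in log2(TPM + 1) over the kept genes. Melanoma plus lisinopril 3 correlated more closely with the lisinopril libraries (mean r = 0.975) than with its own group (0.966). Pmel and Mlana, which make melanosome proteins, stayed at or below 0.105 TPM in every library, and Tyr, Tyrp1 and Dct at or below 0.0424 TPM. Mitochondrially encoded transcripts took 45.9, 46.3 and 42.5% of TPM in lisinopril 1, 2 and 3 and 40.8, 42.7, 43.5 and 28.5% in melanoma plus lisinopril 1 to 4. The difference of the means was -6.02 percentage points (exact permutation test, two-sided, p = 0.2, 35 relabellings, smallest possible p = 0.0286), and -2.57 without melanoma plus lisinopril 4. TPM has a fixed sum in each library, so the share of 1 set of genes bears on the levels of the rest. The median log2 fold change of all kept genes was 0.24, and 0.0080 after median-ratio rescaling, which sets the median gene of each library level.

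In the presence of lisinopril the tumour was accompanied by a broad change of the muscle transcriptome. Of 11254 genes, 832 rose (7.39%) and 122 fell (1.08%), together 8.48%, at an adjusted p below 0.05 (limma on log2(TPM + 1), Benjamini-Hochberg), and 3738 had an unadjusted p below 0.05. The 7 libraries did not overlap between the groups for 34.3% of all kept genes. The share of rises among the calls, 87.2%, depended on scaling. Median-ratio rescaling gave 275 rises and 344 falls, 2.44% and 3.06% of the genes (44.4% rises among the calls), quantile normalization 269 and 347 (43.7%), and TPM recomputed without the mitochondrial genome 617 and 161 (79.3%). All 832 genes called higher kept a log2 fold change above 0 under each of these 3 scalings, and all 122 called lower kept one below 0. Lists are therefore described by their median minus that of all genes. The counts of calls per list stand against 7.39% higher and 1.08% lower over all genes.

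The total of 954 calls rested on few mice. Leaving out lisinopril 1, 2 or 3 gave 63, 163 and 24 calls. Leaving out melanoma plus lisinopril 1, 2, 3 or 4 gave 75, 720, 1711 and 677. The main fit does not use the replicate numbers. By the check given under processing they were treated as a pairing in an alternative fit, though no label says what they mark. With them as a block 488 genes were called. A fit of all 15 libraries, which shares the spread of the other groups, called 196. In all, 22 genes were called whichever of the 7 libraries was left out, and each of the 22 was also called with median-ratio rescaling and with the block. They were singled out after their values were seen. Those with known roles include Fkbp5, the complement genes C3, C4b and Serping1, Lbp, Stat3, Zbtb16, Ace, Apod and Rarres2, all of which rose, and they are described below with their groups. Further members were Ece1 (1.12), which makes endothelin, Timp4 (1.74), an inhibitor of matrix proteases, Acss1 (1.44), the mitochondrial acetyl-CoA synthetase, Ifitm1 (1.53), Lrrc8c (1.49), a subunit of volume-regulated anion channels, Lvrn (1.70), an aminopeptidase, Sned1 (1.92), Phyhd1 (1.72), Grrp1 (1.99), Zdhhc23 (2.28), a palmitoyltransferase, and the uncharacterised 6430548M08Rik (2.04), given as log2 fold changes. The uncharacterised 2310016D23Rik, at -1.30, was the only one of the 22 that fell. Lvrn had at most 0.284 TPM and Zdhhc23 at most 0.904 TPM in the lisinopril libraries. Both reached the minimum level for the test through the tumour-bearing libraries alone.

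**Figure D1:**
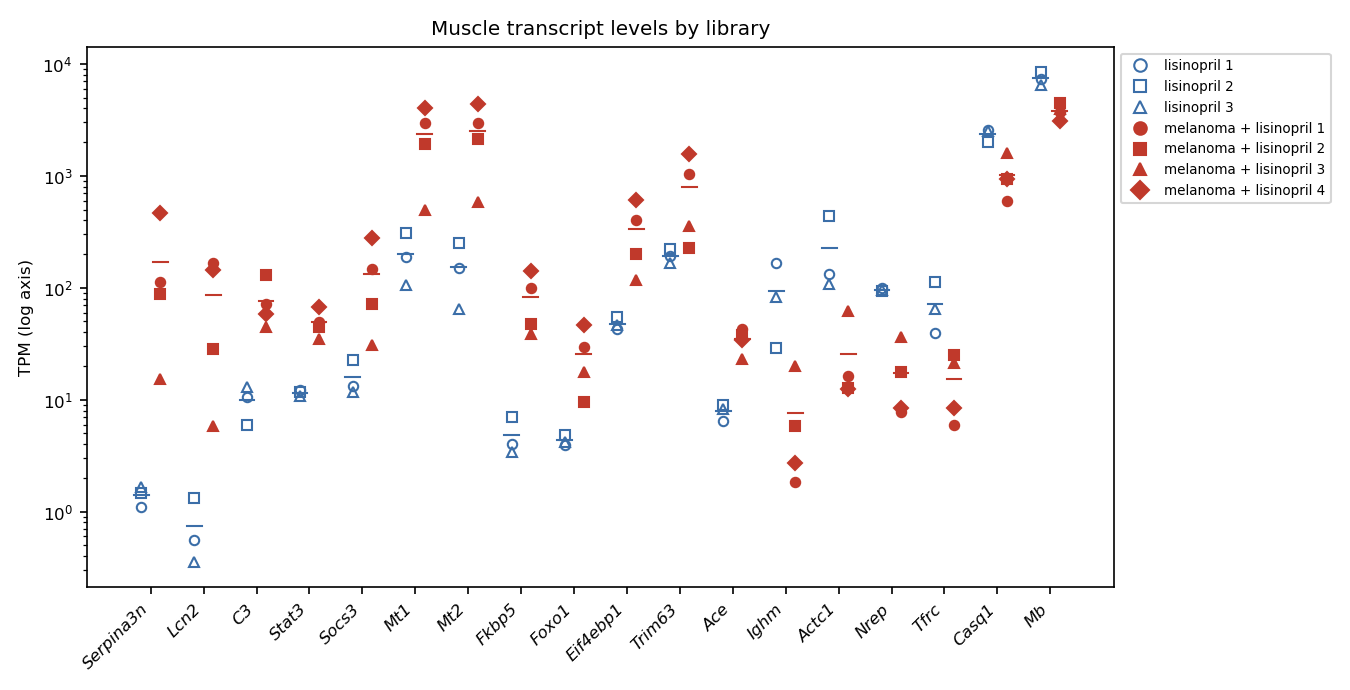
TPM on a log axis of 18 genes in the 3 lisinopril libraries (open blue symbols, one shape per replicate) and the 4 melanoma plus lisinopril libraries (filled red symbols), with lines at the group means of TPM. Among the genes that rose, melanoma plus lisinopril 3 (triangle) often lies nearest the lisinopril libraries, as for Serpina3n at 15.3 TPM, while melanoma plus lisinopril 4 (diamond) is often highest, as for Serpina3n at 465 TPM.

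Acute phase genes and the interleukin-6 family pathway held the largest rises. Serpina3n, which makes a secreted serine protease inhibitor, had 1.101, 1.47 and 1.67 TPM in lisinopril 1, 2 and 3 and 112, 88.7, 15.3 and 465 TPM in melanoma plus lisinopril 1, 2, 3 and 4. Every tumour-bearing library lay above every tumour-free one, but by amounts that differed widely, from 15.3 to 465 TPM (5.28 ± 0.87 in log2 units, adjusted p = 0.017; 38.9-fold on that scale). Lcn2, lipocalin 2, which binds bacterial siderophores and is made by neutrophils and by stressed tissue, had 0.554, 1.32 and 0.352 TPM in lisinopril 1, 2 and 3 and 167, 28.2, 5.76 and 143 TPM in melanoma plus lisinopril 1, 2, 3 and 4 (4.78 ± 0.96 in log2 units, adjusted p = 0.0261). Melanoma plus lisinopril 1 and 4 were high and melanoma plus lisinopril 3 was low, though still above the tumour-free range.

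The complement genes rose with less spread. C3, the central complement protein, had 10.6, 5.96 and 13.04 TPM without the tumour and 70.9, 129, 44.6 and 58.2 TPM with it, and melanoma plus lisinopril 2, not 4, was highest (2.77 ± 0.36 in log2 units, adjusted p = 0.0103). C4b, the complement component that precedes C3 in the classical pathway, had 0.432, 1.04 and 0.853 TPM without the tumour and 16.6, 26.5, 6.79 and 15.7 TPM with it (3.17 ± 0.36 in log2 units, adjusted p = 0.00669). Its reads may be shared with the near copy C4a, and the counting of shared reads is not given in the sources used here. Serping1, the C1 inhibitor that restrains the start of the cascade, had 17.2, 29.4 and 30.3 TPM without the tumour and 83.7, 104, 70.3 and 72.9 TPM with it (1.68). Lbp, which hands bacterial lipopolysaccharide to its receptor complex, had 1.28, 3.08 and 2.402 TPM without the tumour and 13.6, 19.98, 8.52 and 13.8 TPM with it (2.19).

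On the receptor side, Osmr, the oncostatin M receptor, had 1.35, 1.09 and 1.25 TPM without the tumour and 7.14, 8.45, 3.75 and 9.51 TPM with it (1.82 ± 0.25). Il6ra, the interleukin-6 receptor itself, had 0.716, 1.49 and 0.836 TPM without the tumour and 18.4, 6.23, 4.74 and 34.3 TPM with it (2.71 ± 0.55). Stat3, on mm10 chromosome 11 from 100885098 to 100939540, had 12.3, 11.6 and 10.8 TPM without the tumour and 49.5, 44.9, 35.03 and 66.7 TPM with it, a narrow rise in all 4 (1.96 ± 0.21 in log2 units, adjusted p = 0.00669). Socs3, the feedback inhibitor that STAT3 induces, had 13.2, 22.4 and 11.8 TPM without the tumour and 148, 71.8, 31.1 and 276 TPM with it (2.61 ± 0.62 in log2 units, adjusted p = 0.0373), so that within the pathway the factor and its inhibitor both rose. In all, 14 of the 21 measured members of this list of 32 rose and none fell, with a median 1.71 above all genes. The replicate block ended the call of Lcn2 and Socs3 (adjusted p = 0.0506). Socs3 was not called after median-ratio rescaling (adjusted p = 0.0591). Of the 14 calls, 4 remained without lisinopril 3, the fewest for any library left out.

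Neutrophil markers give a measure of the blood cells that also make Lcn2. They summed to 10.7, 60.1 and 39.6 TPM in lisinopril 1 to 3 and to 192, 142, 139 and 34.5 TPM in melanoma plus lisinopril 1 to 4, and 2 of 7 measured markers rose, Retnlg (2.23) and, at the threshold, Csf3r (1.47), the receptor of the growth factor G-CSF. The sum of melanoma plus lisinopril 4 lay within the tumour-free range, while its Retnlg (4.02 TPM), Il1r2 (1.86 TPM) and Mmp8 (0.489 TPM) lay above the highest tumour-free library (3.88, 1.44 and 0.248 TPM). Neither marker call remained when any lisinopril library, or melanoma plus lisinopril 1 or 2, was left out. The part of neutrophils in the Lcn2 values was not tested. The granule genes of immature neutrophils Ngp, Ltf, Camp, Elane and Mpo were at or below 0.212 TPM in every library. In bulk tissue more cells of a type and more RNA per cell cannot be told apart.

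Metallothioneins, small proteins that bind zinc and copper, were among the most abundant transcripts that rose. Mt2 had 149, 250.3 and 64.1 TPM in lisinopril 1, 2 and 3 and 2940.1, 2141, 581 and 4419 TPM in melanoma plus lisinopril 1, 2, 3 and 4 (3.89 ± 0.66 in log2 units, adjusted p = 0.0175), and Mt1 had 188, 311 and 106 TPM in lisinopril 1, 2 and 3 and 2994, 1926, 496 and 4052 TPM in melanoma plus lisinopril 1, 2, 3 and 4 (3.32 ± 0.65 in log2 units, adjusted p = 0.0247). In both genes melanoma plus lisinopril 4 was highest and melanoma plus lisinopril 3 lowest of the tumour-bearing libraries, and no library of the lisinopril group reached it. Slc39a14, the zinc importer ZIP14, rose from 2.197, 2.78 and 2.51 to 22.5, 14.2, 4.63 and 22.1 TPM (2.07 ± 0.44). The other 10 measured members of this list of 14, zinc transporters, Mt3 and the metal sensor Mtf1, did not pass, and the list median was 0.15 above all genes. Blocking on the replicate number left Slc39a14 without a call (adjusted p = 0.06). None of the 3 calls remained when lisinopril 1, lisinopril 3 or melanoma plus lisinopril 1 was left out.

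Mt2 and Mt1 are neighbours on mm10 chromosome 8, at 94172664 to 94173568 and 94179082 to 94180327, and their promoters are shown because the pair rose together. The sequences are RefSeq windows on GRCm38.p6, plus strand, chr8:94172368-94172667 and chr8:94178839-94179138, from 250 bases before to 50 bases after the annotated start. Capitals mark each match on either strand to the core of the metal response element, TGCACNC or TGCGCNC.
Mt2: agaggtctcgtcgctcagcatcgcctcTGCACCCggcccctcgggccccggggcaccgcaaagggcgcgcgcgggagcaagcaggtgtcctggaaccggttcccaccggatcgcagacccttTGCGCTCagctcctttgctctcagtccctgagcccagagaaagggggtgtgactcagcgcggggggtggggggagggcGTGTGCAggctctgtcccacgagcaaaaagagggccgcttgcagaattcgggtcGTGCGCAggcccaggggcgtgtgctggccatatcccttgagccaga
Mt1: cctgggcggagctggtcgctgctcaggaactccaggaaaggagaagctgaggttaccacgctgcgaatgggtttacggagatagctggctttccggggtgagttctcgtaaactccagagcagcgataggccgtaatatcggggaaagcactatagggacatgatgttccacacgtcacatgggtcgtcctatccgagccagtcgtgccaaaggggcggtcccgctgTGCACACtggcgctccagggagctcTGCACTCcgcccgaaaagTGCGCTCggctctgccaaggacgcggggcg
The Mt2 window held 4 matches and the Mt1 window 3. Of 32851 windows of this length in the table, 25.7% held at least 1 match, 1.97% at least 3 and 0.517% at least 4. At least 1 match stood in 35.7% of the windows of kept genes, 32.5% of those of genes called higher and 27.5% of those of genes called lower.

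Socs3 is shown for the letters of a STAT site, TTCNNNGAA, which read the same on both strands and are in capitals. The window lies on the minus strand, chr11:117969317-117969616, and 8.30% of all windows held a match.
Socs3: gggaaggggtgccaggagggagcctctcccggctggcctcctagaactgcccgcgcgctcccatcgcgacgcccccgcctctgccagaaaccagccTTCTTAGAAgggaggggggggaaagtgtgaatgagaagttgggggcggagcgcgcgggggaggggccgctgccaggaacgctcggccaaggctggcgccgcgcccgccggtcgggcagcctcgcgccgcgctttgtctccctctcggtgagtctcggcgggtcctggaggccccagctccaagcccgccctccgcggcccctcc
The same letters stood in 6.83% of the windows of the kept genes that matched the table, 8.89% of those of genes called higher and 4.58% of those of genes called lower. STAT letters were also sought in other acute phase and interleukin-6 family genes. The windows of Serpina3n, Lcn2, C3, Stat3, Osmr, Il6ra, Il6st, Saa1 and Cp held none, and that of Steap4 held 1. The letters of a glucocorticoid receptor site, ACANNNTGT, stood in 4.04% of the windows of kept genes. They stood in 5.06% of those of genes called higher and 8.4% of those of genes called lower. A match describes the letters of a window and not a bound site.

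Targets of the glucocorticoid receptor formed another group with large rises. Fkbp5, a co-chaperone that the receptor induces and that dampens it, lies on mm10 chromosome 17 from 28399094 to 28517527 and had 4.05, 7.02 and 3.43 TPM in lisinopril 1, 2 and 3 and 100.4, 47.6, 38.4 and 143 TPM in melanoma plus lisinopril 1, 2, 3 and 4. All 4 tumour-bearing libraries lay well above the highest tumour-free one (3.69 ± 0.43 in log2 units, adjusted p = 0.00747; 12.9-fold on that scale). Zbtb16, a zinc finger factor induced by glucocorticoids in many tissues, had 18.2, 16.03 and 10.8 TPM without the tumour and 61.9, 50.6, 51.1 and 87.04 TPM with it (1.99 ± 0.24). Map3k6 (2.06), Glul (1.96), which makes glutamine and is a classic glucocorticoid target of muscle, Pik3r1 (1.83), a regulatory subunit of phosphoinositide 3-kinase, and Cdkn1a (1.97), the cell cycle inhibitor p21, rose. Ddit4, which restrains mTORC1, had 55.8, 60.3 and 38.01 TPM without the tumour and 239.6, 39.6, 122 and 125 TPM with it and did not pass (1.11 ± 0.49 in log2 units, adjusted p = 0.151). With Lcn2, 7 of 21 measured members of this list of 23 rose and none fell, and the median lay 0.46 above all genes. Glul was not called under the block (adjusted p = 0.05). Setting the median gene level ended the call of Cdkn1a (adjusted p = 0.0782). Without lisinopril 3, 2 of the 7 calls remained.

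In insulin and FoxO signalling the factor and several upstream parts rose together. Foxo1, the transcription factor that drives atrophy programmes when insulin signalling is low, had 3.94, 4.86 and 4.16 TPM without the tumour and 29.8, 9.55, 17.5 and 46.2 TPM with it (2.12 ± 0.43 in log2 units, adjusted p = 0.0258), lowest among the tumour-bearing libraries in melanoma plus lisinopril 2. Igf1r (1.35), Insr (0.90) and Akt1 (1.00), the 2 receptors and the kinase below them, rose, as did Igfbp4 (1.16), which binds IGF1. With Pik3r1, 6 of 23 measured members rose, none fell and the median was 0.38 above all genes. In the mTORC1 list, 2 of 23 measured members rose, against 7.39% of all genes. They were Mtor itself (0.90) and Eif4ebp1, the repressor of cap-dependent translation, with 42.9, 54.6 and 46.1 TPM without the tumour and 407, 199.9, 118 and 608 TPM with it (2.51 ± 0.47 in log2 units, adjusted p = 0.0226). Under the replicate block Foxo1, Insr and Akt1 were no longer called (adjusted p = 0.0506 to 0.0685). Median-ratio rescaling left Insr and Igfbp4 without a call (adjusted p = 0.0642 to 0.0825). No call of either list remained when lisinopril 1 or 3 or melanoma plus lisinopril 1 was left out.

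The muscle ubiquitin ligases best known from atrophy were high in some tumour-bearing mice only. Trim63, MuRF1, had 191, 222 and 167 TPM in lisinopril 1, 2 and 3 and 1044, 228, 359.5 and 1563 TPM in melanoma plus lisinopril 1, 2, 3 and 4 (1.65 ± 0.58 in log2 units, adjusted p = 0.0904). Fbxo32, atrogin-1, had 101, 94.95 and 79.5 TPM in lisinopril 1, 2 and 3 and 357, 66.2, 149.9 and 777 TPM in melanoma plus lisinopril 1, 2, 3 and 4 (1.32 ± 0.68 in log2 units, adjusted p = 0.198). Melanoma plus lisinopril 1 and 4 were high for both genes, while melanoma plus lisinopril 2 lay just above the tumour-free range for Trim63 and below it for Fbxo32. Of the 29 genes of this list, 2 rose, against 7.39% of all genes: Ubr2 (0.89) and Ubr4 (0.67), ligases of the N-degron pathway. The list median was 0.19 above all genes. Among autophagy and lysosome genes 5 of 37 measured members rose: Gabarapl1 (1.37), Map1lc3b (1.24) and Map1lc3a (0.96), which coat the autophagosome, its cargo receptor Sqstm1 (1.10), and the lysosomal membrane protein Lamp2 (1.11). Of 36 proteasome subunits none rose and 1 fell, Psme1 (-0.63), an activator subunit induced by interferon. The replicate block ended the call of Ubr2, Ubr4, Gabarapl1, Map1lc3b, Map1lc3a and Psme1 (adjusted p = 0.0506 to 0.064). Ubr4, Gabarapl1, Map1lc3b, Map1lc3a and Sqstm1 were not called after median-ratio rescaling (adjusted p = 0.0502 to 0.0852). No call of these lists remained when lisinopril 1 or 3 or melanoma plus lisinopril 1 was left out.

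**Figure D2:**
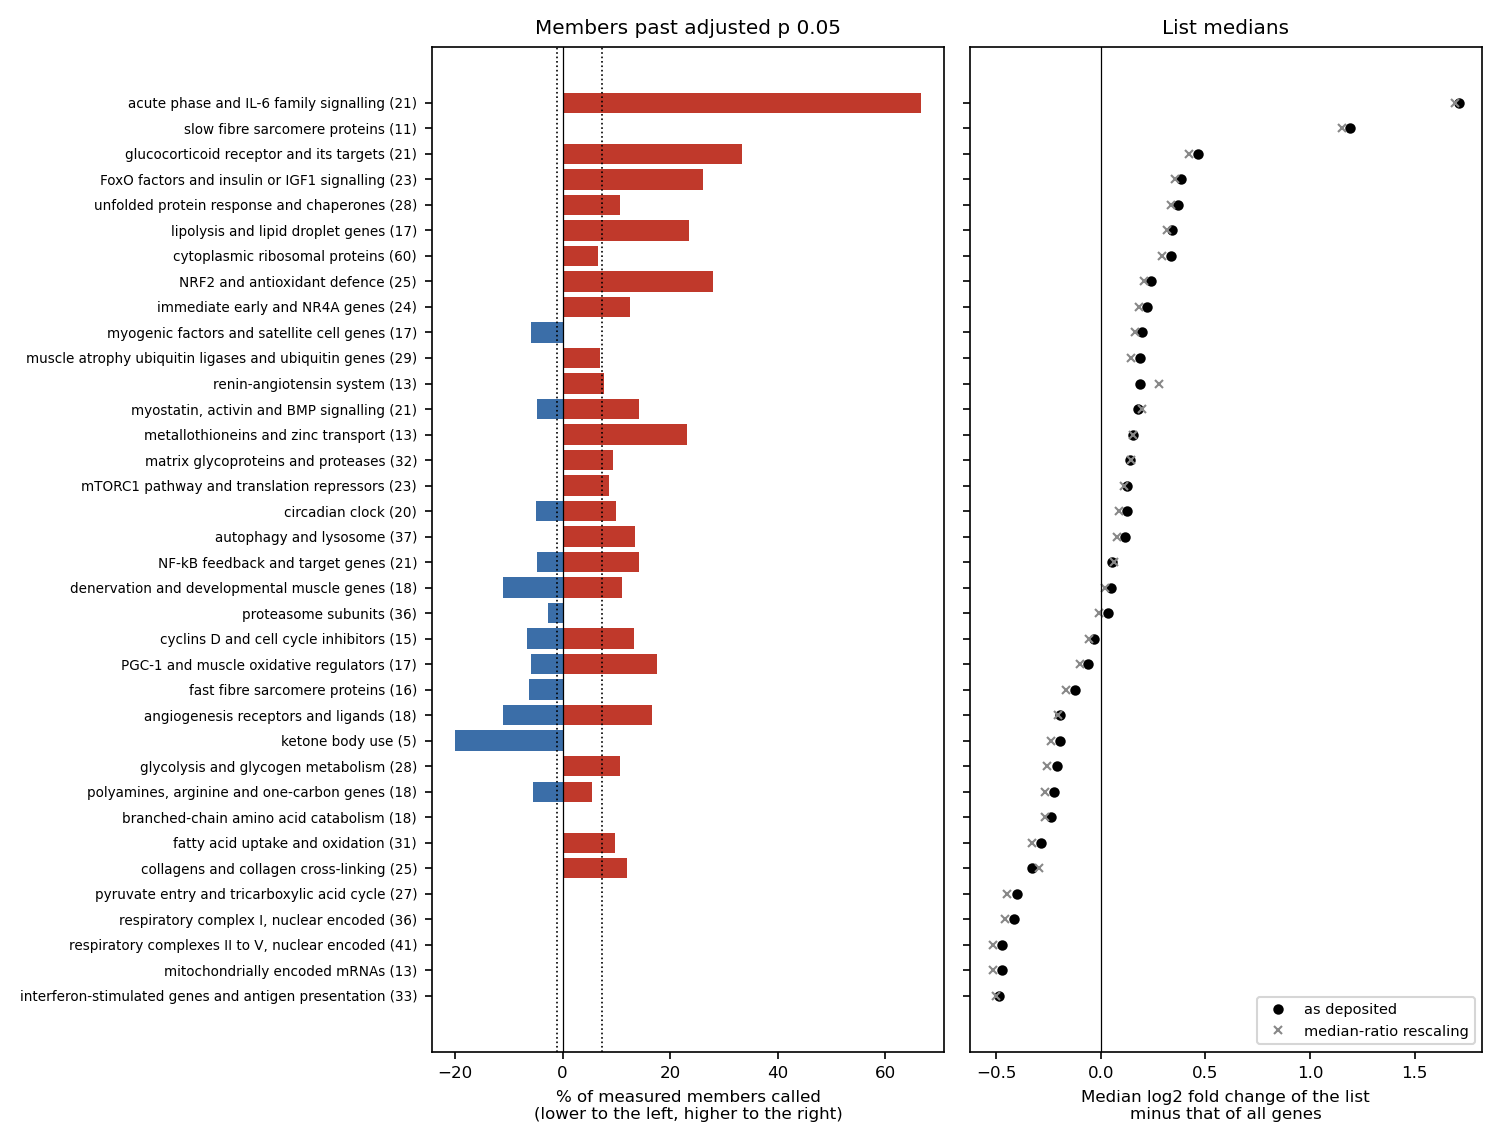
Left, for each gene list with its number of measured genes, the percentage of members called higher (red, to the right) and lower (blue, to the left), with dotted lines at the shares over all genes, 7.39% higher and 1.08% lower. Right, the list median of the log2 fold change minus that of all genes, as deposited (dots) and with median-ratio rescaling (crosses). Acute phase genes lead both panels with 14 of 21 called higher.

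The contractile apparatus showed few calls and much variation between mice. The fast myosins Myh4 (0.55 ± 0.28 in log2 units, adjusted p = 0.194), Myh1 (0.39 ± 0.16 in log2 units, adjusted p = 0.131) and Myh2 (0.25 ± 0.52 in log2 units, adjusted p = 0.757) did not pass, and the change of Myh2 had the opposite sign with median-ratio rescaling (-0.021). Of 16 fast fibre genes 1 fell, Casq1, the calcium store protein of the fast sarcoplasmic reticulum, with 2560.5, 2023 and 2515 TPM in lisinopril 1, 2 and 3 and 592, 939, 1599 and 935 TPM in melanoma plus lisinopril 1, 2, 3 and 4 (-1.30 ± 0.29 in log2 units, adjusted p = 0.0322). The call of Casq1 was lost under the replicate block (adjusted p = 0.0593) and when any library but melanoma plus lisinopril 3 was left out. Slow fibre genes had a median 1.19 above all genes with 0 of 11 measured members called. Their levels lay apart within both groups, and the members named here were chosen after their values were seen. Myh7, the slow myosin, which did not reach the minimum level for the test, had 0.161, 0.403 and 0.0421 TPM in lisinopril 1, 2 and 3 and 0.891, 6.25, 0.244 and 59.3 TPM in melanoma plus lisinopril 1, 2, 3 and 4. Tnnt1, slow troponin T, had 1.54, 11.8 and 1.57 TPM in lisinopril 1, 2 and 3 and 4.79, 10.8, 4.23 and 78.4 TPM in melanoma plus lisinopril 1, 2, 3 and 4, and Tnni1, slow troponin I, had 0.8901, 18.6 and 0.469 TPM in lisinopril 1, 2 and 3 and 2.93, 4.36, 4.45 and 26.7 TPM in melanoma plus lisinopril 1, 2, 3 and 4. Melanoma plus lisinopril 4 was highest in each, and lisinopril 2 exceeded the other 2 libraries of its group.

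**Figure D3:**
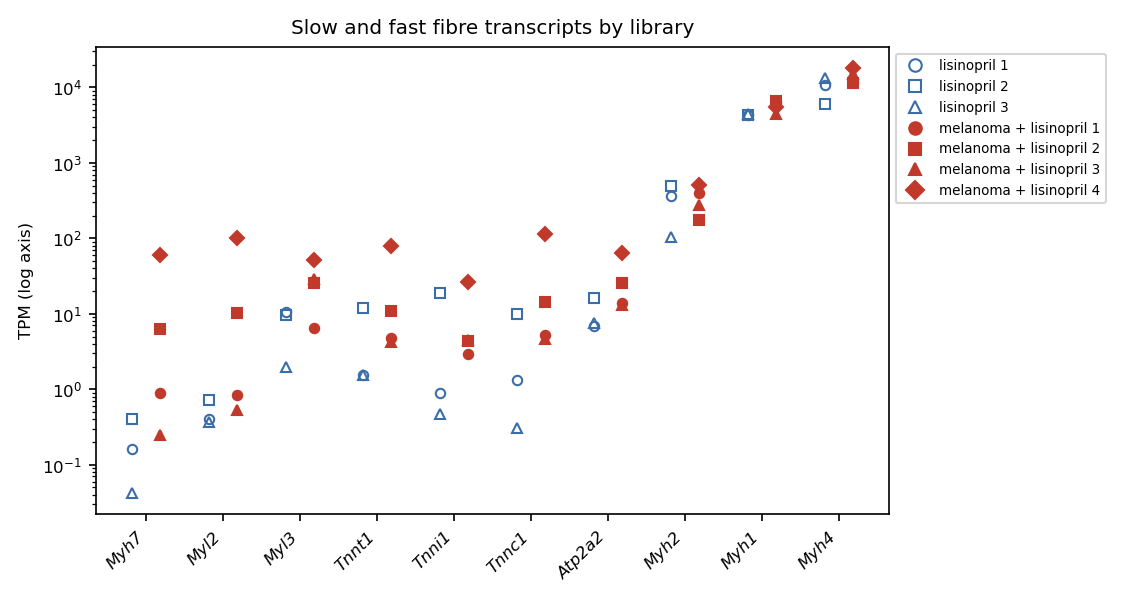
TPM on a log axis of 7 slow fibre transcripts (Myh7 to Atp2a2) and the 3 adult fast myosins (Myh2, Myh1, Myh4) in the 3 lisinopril libraries (open blue) and the 4 melanoma plus lisinopril libraries (filled red). Melanoma plus lisinopril 4 is the highest library for each of the 7 slow transcripts, reaching 59.3 TPM of Myh7, and lisinopril 2 lies above the other tumour-free libraries for Tnnt1, Tnni1 and Tnnc1.

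Genes of development, denervation and growth control moved in both directions. Actc1, cardiac alpha-actin, which developing muscle also makes, fell from 133, 442 and 108 TPM to 16.2, 12.8, 61.6 and 12.4 TPM (-3.14 ± 0.61 in log2 units, adjusted p = 0.0245), with melanoma plus lisinopril 3 the highest of the 4. Ankrd1, a stretch-responsive titin-binding protein, had 22.3, 51.8 and 22.7 TPM without the tumour and 163, 439, 61.6 and 234 TPM with it (2.55 ± 0.58 in log2 units, adjusted p = 0.0334). The methyltransferase gene Mettl21e fell (-1.58) and Runx1, a factor induced by denervation, rose from under 1 TPM (0.83). The acetylcholine receptor subunit Chrna1, another denervation gene, had 7.57, 10.02 and 4.18 TPM without the tumour and 6.93, 7.52, 6.35 and 18.7 TPM with it (0.34 ± 0.37 in log2 units, adjusted p = 0.54), and Myog, myogenin, had 10.9, 38.4 and 6.23 TPM without the tumour and 33.2, 89.6, 12.1 and 27.5 TPM with it (1.13 ± 0.68 in log2 units, adjusted p = 0.264). With the replicate block Myog passed (adjusted p = 0.0331). In this list 2 of 18 measured members rose and 2 fell, where 7.39% of all genes rose and 1.08% fell. Among TGF-beta family genes, Mstn, myostatin, a brake on muscle growth, had 33.5, 34.4 and 33.6 TPM without the tumour and 35.9, 47.7, 31.2 and 93.7 TPM with it (0.47 ± 0.32 in log2 units, adjusted p = 0.325). Inha, the inhibin alpha subunit, fell from 14.9, 9.34 and 13.5 to 3.11, 2.88, 4.41 and 5.37 TPM (-1.47 ± 0.22 in log2 units, adjusted p = 0.0135), and Nog, noggin, which blocks BMPs (1.87), the receptor Tgfbr2 (1.22) and Smad4 (0.77) rose, so that 3 of 21 measured members rose and 1 fell. Blocking on the replicate number left Actc1, Mettl21e and Smad4 without a call (adjusted p = 0.0553 to 0.0741). After median-ratio rescaling Ankrd1, Runx1 and Smad4 were no longer called (adjusted p = 0.0609 to 0.0757). Without lisinopril 1 or lisinopril 3 no call of these lists remained.

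Transcription factors of stress and daily rhythm gave single large changes. Nfil3, a repressor tied to the clock and to cytokine signalling, had 27.4, 32.7 and 18.7 TPM without the tumour and 219, 129, 55.1 and 347 TPM with it (2.53 ± 0.52 in log2 units, adjusted p = 0.0288). Nr4a3, an orphan nuclear receptor induced by exercise and adrenergic signals, had 12.1, 18.4 and 6.54 TPM without the tumour and 117, 58.3, 69.1 and 43.9 TPM with it (2.47 ± 0.37 in log2 units, adjusted p = 0.0132), with melanoma plus lisinopril 4 the lowest of the 4. Of 20 measured clock genes 2 rose, Nfil3 and Rora (1.19), and 1 fell, Bhlhe41 (-1.02), and of 24 immediate early genes 3 rose, with Ier3 (1.32) and Klf4 (1.31) beside Nr4a3. In the NF-kB list 3 of 21 measured members rose, Map3k14 (1.44), the kinase of the non-canonical branch, Tnfaip2 (1.26) and the interleukin-1 receptor Il1r1 (0.99), while the adhesion molecule Vcam1 fell (-1.13). Over all genes 7.39% rose and 1.08% fell, and the shares of these lists were not tested against that. Interferon-stimulated and antigen presentation genes had a median -0.49 relative to all genes, with 0 of 33 called. They summed to 779.5, 466.8 and 462.3 TPM without the tumour and 379.6, 499.7, 460.6 and 539.7 TPM with it. Their mean level, relative to all genes and to the lisinopril mean, was 0.41, -0.24 and -0.17 in lisinopril 1 to 3. It was -0.81, -0.34, -0.28 and -0.645 in melanoma plus lisinopril 1 to 4, so that lisinopril 1 stood apart in its group. Rora, Bhlhe41, Ier3, Klf4, Tnfaip2 and Vcam1 were not called under the block (adjusted p = 0.0506 to 0.0845). Setting the median gene level ended the call of Rora, Ier3 and Klf4 (adjusted p = 0.0525 to 0.0852). No call of these lists remained without lisinopril 3.

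Of the renin-angiotensin system, which the drug targets, the transcript of the inhibited enzyme itself rose. Ace had 6.49, 8.96 and 8.26 TPM in lisinopril 1, 2 and 3 and 43.1, 38.2, 23.2 and 34.1 TPM in melanoma plus lisinopril 1, 2, 3 and 4, with no overlap between the groups (1.98 ± 0.22 in log2 units, adjusted p = 0.00669; 3.94-fold), and the call held whichever library was left out. The gene lies on mm10 chromosome 11 from 105967945 to 105989964. Agt, angiotensinogen, the precursor of the peptide, had 7.11, 11.5 and 5.99 TPM without the tumour and 21.2, 25.8, 8.17 and 11.5 TPM with it (0.86 ± 0.37 in log2 units, adjusted p = 0.139), and Agtr1a, the main angiotensin II receptor, had 1.299, 1.26 and 1.81 TPM without the tumour and 1.55, 2.404, 1.28 and 1.11 TPM with it (0.056 ± 0.19 in log2 units, adjusted p = 0.86). The sign of the Agtr1a change was the opposite with median-ratio rescaling (-0.10). Ace was the only one of 13 measured members called, and the transcript does not show the activity of the enzyme.

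Matrix and vessel genes changed singly rather than as lists. Lox, the enzyme that cross-links collagen, had 1.07, 5.58 and 1.49 TPM without the tumour and 16.5, 12.2, 10.6 and 28.1 TPM with it (2.37 ± 0.43 in log2 units, adjusted p = 0.0203), and the collagen hydroxylases P4ha2 (0.85) and Plod3 (0.68) rose, while none of the collagen genes was called. Col3a1, a fibrillar collagen, ranged from 28.5, 159.7 and 53.2 TPM in lisinopril 1, 2 and 3 to 15.3, 39.8, 95.3 and 5.26 TPM in the tumour-bearing libraries, and the median of this list of 25 measured genes was -0.33 relative to all genes. Prg4, lubricin, had 1.36, 1.804 and 1.05 TPM without the tumour and 17.7, 16.1, 3.45 and 13.8 TPM with it (2.34 ± 0.44), and the protease Mmp3 (1.63) and decorin, Dcn (0.92), rose among 32 matrix glycoproteins and proteases. In the angiogenesis list of 18 measured genes, Pgf (1.53), placental growth factor, its receptor Flt1 (0.96) and Eng, endoglin (0.94), rose, and Angptl2 (-1.67) and apelin, Apln (-1.07), fell. Angptl2, a secreted angiopoietin-like protein, went from 33.9, 36.2 and 34.6 to 7.48, 7.79, 21.1 and 8.805 TPM, with melanoma plus lisinopril 3 nearest the tumour-free range. Under the replicate block P4ha2, Plod3, Mmp3, Dcn, Pgf, Eng, Angptl2 and Apln were no longer called (adjusted p = 0.0506 to 0.0919). Median-ratio rescaling left P4ha2, Plod3, Mmp3, Dcn, Flt1 and Eng without a call (adjusted p = 0.0691 to 0.15). No call of these lists remained without lisinopril 1 or lisinopril 3. The fibroblast and endothelial content was followed by markers. Endothelial markers summed to 844, 574 and 588 TPM without the tumour and 989, 1174, 822 and 771 TPM with it, and fibroblast markers to 351, 769.8 and 681 TPM and 955, 1019, 965 and 769 TPM. Of 11 endothelial markers 9 had a positive change, and 1, the adhesion molecule Esam (0.82), was called. Kdr (-0.72) and Cldn5 (-0.35) had a negative change without passing. Of 9 fibroblast markers 7 had a positive change, and Ly6a (1.62) and Dcn were called. Col1a1 (-0.61) and Col3a1 (-1.34) had a negative change without passing. Of 5 measured tendon cell markers Tnmd, tenomodulin, fell (-1.14), and 2 had a positive change, Scx (0.78) and Comp (0.50), neither called. The part of these cell types in the matrix and vessel values was not tested.

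Nuclear genes of mitochondrial energy supply had medians below that of all genes, and in the values as deposited none passed singly in the lists of the respiratory complexes and the tricarboxylic acid cycle. The median relative to all genes was -0.41 for 36 nuclear genes of complex I, -0.47 for 41 of complexes II to V, -0.47 for the 13 mitochondrially encoded mRNAs and -0.40 for 27 genes of pyruvate entry and the tricarboxylic acid cycle, and no gene of these 4 lists was called in either direction. For the 13 mitochondrially encoded mRNAs the value was -0.03 after quantile normalization, and their level relative to the lisinopril mean was -0.26, -0.29, -0.20 and -1.10 in melanoma plus lisinopril 1 to 4, so that 1 library stood apart. For the 3 nuclear lists it was -0.42, -0.47 and -0.42 after quantile normalization. With median-ratio rescaling 9 genes of complex I fell, against 3.06% of all genes, and the list median relative to all genes was -0.46. In each of the other 2 nuclear lists 1 gene fell under that scaling. Quantile normalization gave 12, 5 and 1 genes lower in the 3 nuclear lists, where 347 of all 11254 genes were lower. Myoglobin, Mb, the oxygen store of oxidative fibres, fell from 7386, 8543 and 6542 to 3719.8, 4429.7, 3925 and 3104 TPM (-0.98 ± 0.17 in log2 units, adjusted p = 0.0176), and Ckmt2, the mitochondrial creatine kinase, from the list of polyamine, arginine and one-carbon genes, fell as well (-0.92). Fabp3, the fatty acid carrier of muscle, had 852, 859 and 699 TPM without the tumour and 344, 499.7, 667 and 364 TPM with it and did not pass (-0.82 ± 0.23 in log2 units, adjusted p = 0.0569). Ppargc1a, PGC-1alpha, which drives mitochondrial biogenesis, had 10.4, 14.2 and 13.4 TPM in lisinopril 1, 2 and 3 and 59.7, 50.1, 21.6 and 13.8 TPM in melanoma plus lisinopril 1, 2, 3 and 4 (1.23 ± 0.44 in log2 units, adjusted p = 0.0951), high in melanoma plus lisinopril 1 and 2 and near the tumour-free level in 4. Pdk4, the kinase that shuts off pyruvate dehydrogenase in fasting, had 393, 294 and 279 TPM without the tumour and 654, 409, 527 and 1489 TPM with it (1.09 ± 0.38 in log2 units, adjusted p = 0.0906), and passed with the block (adjusted p = 0.0489). The factors Nrf1 (0.60) and Ppard (0.88), with which PGC-1alpha works, and the related coactivator Pprc1 (0.87) rose, making 3 of 17 members higher and 1 lower.

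In fuel handling single genes were called. Among 31 measured genes of fatty acid uptake and oxidation 3 rose and none fell, against 7.39% of all genes called higher. Among the 3 were the fatty acid transporter Cd36 (1.05) and Lpl (0.63), which frees fatty acids at the vessel wall. The list median was -0.28 relative to all genes, and after median-ratio rescaling 1 gene of this list was higher and 1 lower. Cd36 had 127, 155 and 136 TPM without the tumour and 279.5, 334, 296 and 251 TPM with it. Of 17 measured lipid droplet genes 4 rose: the triglyceride lipase Pnpla2 (1.23), the hormone-sensitive lipase Lipe (0.92), the droplet coat protein Plin4 (1.47) and the phosphatidate phosphatase Lpin1 (1.09). Of 5 measured fat cell markers 4 had a positive change, Car3 (-1.19) a negative one, and none was called. Their mean level, relative to all genes and to the lisinopril mean, was -0.41, -0.29 and 0.70 in lisinopril 1 to 3. It was -0.355, 0.305, 1.23 and -0.54 in melanoma plus lisinopril 1 to 4. The part of fat cells in the values of fuel handling was not tested. Oxct1, which starts the use of ketone bodies, fell from 179, 210.1 and 221 to 113, 120.3, 135 and 94.3 TPM (-0.82 ± 0.16). Ppp1r3c, a subunit that brings a phosphatase to glycogen, had 178, 222 and 143 TPM without the tumour and 847, 1097, 366 and 1333 TPM with it (2.20 ± 0.39 in log2 units, adjusted p = 0.0202), and Fbp2 (1.07), of the reverse path of glycolysis, rose too, with 3 of 28 measured genes of glycolysis and glycogen higher and none lower. None of 18 genes of branched-chain amino acid breakdown was called. The shares called higher in the lists of fuel handling were not tested against the 7.39% of all genes. The replicate block ended the call of Nrf1, Ppard, Pprc1, Lpl, Pnpla2 and Plin4 (adjusted p = 0.0509 to 0.0784). Ckmt2, Nrf1, Pprc1, Lpl, Pnpla2 and Lipe were not called after median-ratio rescaling (adjusted p = 0.0534 to 0.224). Without lisinopril 1 or lisinopril 3 no call among the genes of fuel handling or mitochondrial energy supply remained.

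Genes of defence against oxidants were called higher more often than the 7.39% of all genes, and ribosomal protein genes were not, with no test of either share. Gpx3, the secreted glutathione peroxidase, had 79.2, 116 and 129.8 TPM without the tumour and 793, 267, 276 and 1143 TPM with it (2.25 ± 0.49 in log2 units, adjusted p = 0.0319), and Hmox1, haem oxygenase, had 3.14, 4.35 and 3.34 TPM without the tumour and 15.5, 29.9, 6.27 and 56.7 TPM with it (2.23 ± 0.57 in log2 units, adjusted p = 0.0456). The factor NRF2, encoded by Nfe2l2 (0.94), and its targets Gclm (1.54) and Gclc (0.83), which make glutathione, and Txnrd1 (1.18) rose, 7 of 25 measured members with G6pdx. The median of this list was 0.24 above all genes, and 1 of the 7 calls remained after median-ratio rescaling. In the unfolded protein response Atf4 (0.98), Calr (0.72) and Canx (0.67) rose, 3 of 28, against 7.39% of all genes. Of 60 ribosomal protein genes 4 rose, Rps12 (1.21), Rpl30 (1.09), Rpl10 (0.95) and Rpl14 (0.79), a share below that of all genes. Yet the changes of all 60 were positive and above the median of all genes, with a list median 0.34 above it. The values of ribosomal genes are uncertain because they have many near copies. Cyclin D1, Ccnd1, fell from 3.98, 4.41 and 3.82 to 1.098, 1.37, 1.41 and 0.163 TPM (-1.39 ± 0.25 in log2 units, adjusted p = 0.0203), while the pocket protein Rb1 rose (0.67). Blocking on the replicate number left Gpx3, Hmox1, Nfe2l2, Gclc, Txnrd1, Atf4, Calr, Canx, Rps12, Rpl30, Rpl10, Rpl14 and Rb1 without a call (adjusted p = 0.0506 to 0.0794). After median-ratio rescaling Gpx3, Hmox1, Nfe2l2, Gclc, Txnrd1, Atf4, Calr, Canx, Rps12, Rpl10, Rpl14 and Rb1 were no longer called (adjusted p = 0.052 to 0.104). None of these calls remained without lisinopril 1, lisinopril 2 or lisinopril 3.

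Some of the largest changes lay outside the lists. Apod, an apolipoprotein that carries arachidonic acid and rises in stressed tissue, had 11.5, 17.2 and 14.1 TPM in lisinopril 1, 2 and 3 and 155, 114, 62.8 and 127 TPM in melanoma plus lisinopril 1, 2, 3 and 4, above the tumour-free range in every mouse (2.87 ± 0.29 in log2 units, adjusted p = 0.00669). Rarres2, chemerin, a ligand for a receptor of macrophages and dendritic cells, had 4.15, 4.697 and 7.65 TPM without the tumour and 22.7, 20.97, 13.9 and 22.2 TPM with it (1.70). Tmem100 (2.79), a membrane protein of endothelium, and Cep85l (2.56) rose. Of the genes that fell, Nrep, a neuronal and wound-related protein, went from 99.6, 93.6 and 95.5 to 7.696, 17.8, 36 and 8.49 TPM (-2.65 ± 0.44 in log2 units, adjusted p = 0.0171). Ostn, musclin, a peptide secreted by muscle that binds the natriuretic peptide clearance receptor, went from 8.64, 18.9 and 27.6 to 0.384, 0.604, 6.49 and 1.31 TPM (-2.82 ± 0.57). Tfrc, the transferrin receptor through which cells take up iron, went from 39.1, 112 and 65.2 to 5.88, 25.04, 21.3 and 8.38 TPM (-2.27 ± 0.50). Dupd1, a muscle dual specificity phosphatase (-2.01), Map2k6, a kinase that activates p38 (-1.63), Pde4a, which degrades cyclic AMP (-1.45), Lrtm1 (-1.77), Nkain1 (-1.34) and the uncharacterised B230312C02Rik (-2.61) fell too. For Apod, Tmem100, Cep85l and the genes that fell here, separation of the groups was a condition of being named by the rule. The same condition held for the rises of Serpina3n, Lcn2, Mt1, Mt2, Fkbp5, C3, C4b, Il6ra, Socs3, Ankrd1, Nfil3 and Eif4ebp1. It also held for the falls of Ighm, Actc1, Inha, Angptl2, Mettl21e and Casq1. Cep85l and Nkain1 were not called under the block (adjusted p = 0.051 to 0.0625).

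Transcripts of immune cells differed in both directions. Ighm, the heavy chain of immunoglobulin M, on mm10 chromosome 12, had 167, 28.8 and 83.1 TPM in lisinopril 1, 2 and 3 and 1.83, 5.79, 20.1 and 2.72 TPM in melanoma plus lisinopril 1, 2, 3 and 4 (-3.59 ± 0.72 in log2 units, adjusted p = 0.0261). All 4 tumour-bearing libraries were below the lowest tumour-free one, and with the replicate block the change did not pass (adjusted p = 0.066). Nor did it pass without lisinopril 1 or 3 or without melanoma plus lisinopril 1 or 4, and it did in the other 3 of these 7 fits. The light chain gene Igkc had 61.2, 4.08 and 1.06 TPM in lisinopril 1, 2 and 3 and 0.553, 2.26, 0.552 and 1.53 TPM in melanoma plus lisinopril 1, 2, 3 and 4, with lisinopril 1 far above the rest (-2.04 ± 0.94 in log2 units, adjusted p = 0.162). Other genes of this cell type did not share 1 pattern. Jchain, which joins antibody units, had 4.31 TPM in lisinopril 1 and at most 0.332 TPM elsewhere. Cd79b, of the B cell receptor, and Mzb1, of antibody-secreting cells, were highest in melanoma plus lisinopril 4, at 2.45 and 2.01 TPM, against at most 0.814 and 0.475 TPM in the other 6 libraries. Cd79a, Iglc2, Ms4a1 and Ighd were at or below 0.5596 TPM in every library, and the T cell genes Cd3d, Cd3e, Cd3g and Cd8a at or below 0.191 TPM. Il2rg, the shared cytokine receptor chain of lymphocytes, had 2.76, 2.01 and 1.24 TPM without the tumour and 2.22, 3.57, 1.48 and 1.49 TPM with it (0.069 ± 0.26 in log2 units, adjusted p = 0.87). Of 11 measured macrophage markers 3 rose, against 7.39% of all genes. They were Cd163 (1.86), the haemoglobin scavenger receptor, and Lyve1 (1.77) and Folr2 (1.34), which mark resident macrophages. Cd163 had at most 0.625 TPM in the lisinopril libraries and reached the minimum level for the test through the tumour-bearing libraries alone. The whole macrophage list summed to 31.96, 88.8 and 37.4 TPM without the tumour and 98.7, 171, 75.01 and 105 TPM with it, highest in melanoma plus lisinopril 2. After median-ratio rescaling none of the neutrophil, macrophage or endothelial markers that rose was still called, nor was any macrophage marker when lisinopril 1 or 3 or melanoma plus lisinopril 1 or 4 was left out. Red cell transcripts summed to 1589, 2331 and 4213 TPM and 2040, 2220, 1445 and 165 TPM, lowest in melanoma plus lisinopril 4. The part of blood content in the neutrophil and immunoglobulin values was not tested.

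The 4 tumour-bearing mice differed in the size of the change. Among the 832 genes called higher, melanoma plus lisinopril 4 was the highest of the 4 for 417 and melanoma plus lisinopril 3 the lowest for 547. Among the 122 called lower, melanoma plus lisinopril 3 was the highest, and so nearest the tumour-free level, for 78. The mean level of the acute phase list, relative to all genes and to the lisinopril mean, was 2.15, 1.80, 0.93 and 2.38 in melanoma plus lisinopril 1 to 4 in log2 units, against -0.038, 0.072 and -0.034 in lisinopril 1 to 3. For the glucocorticoid list it was 1.35, 0.58, 0.64 and 1.36, and for the neutrophil markers 2.19, 1.64, 1.39 and -0.026, where the order was not the same. These values describe the libraries and carry no test.

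**Figure D4:**
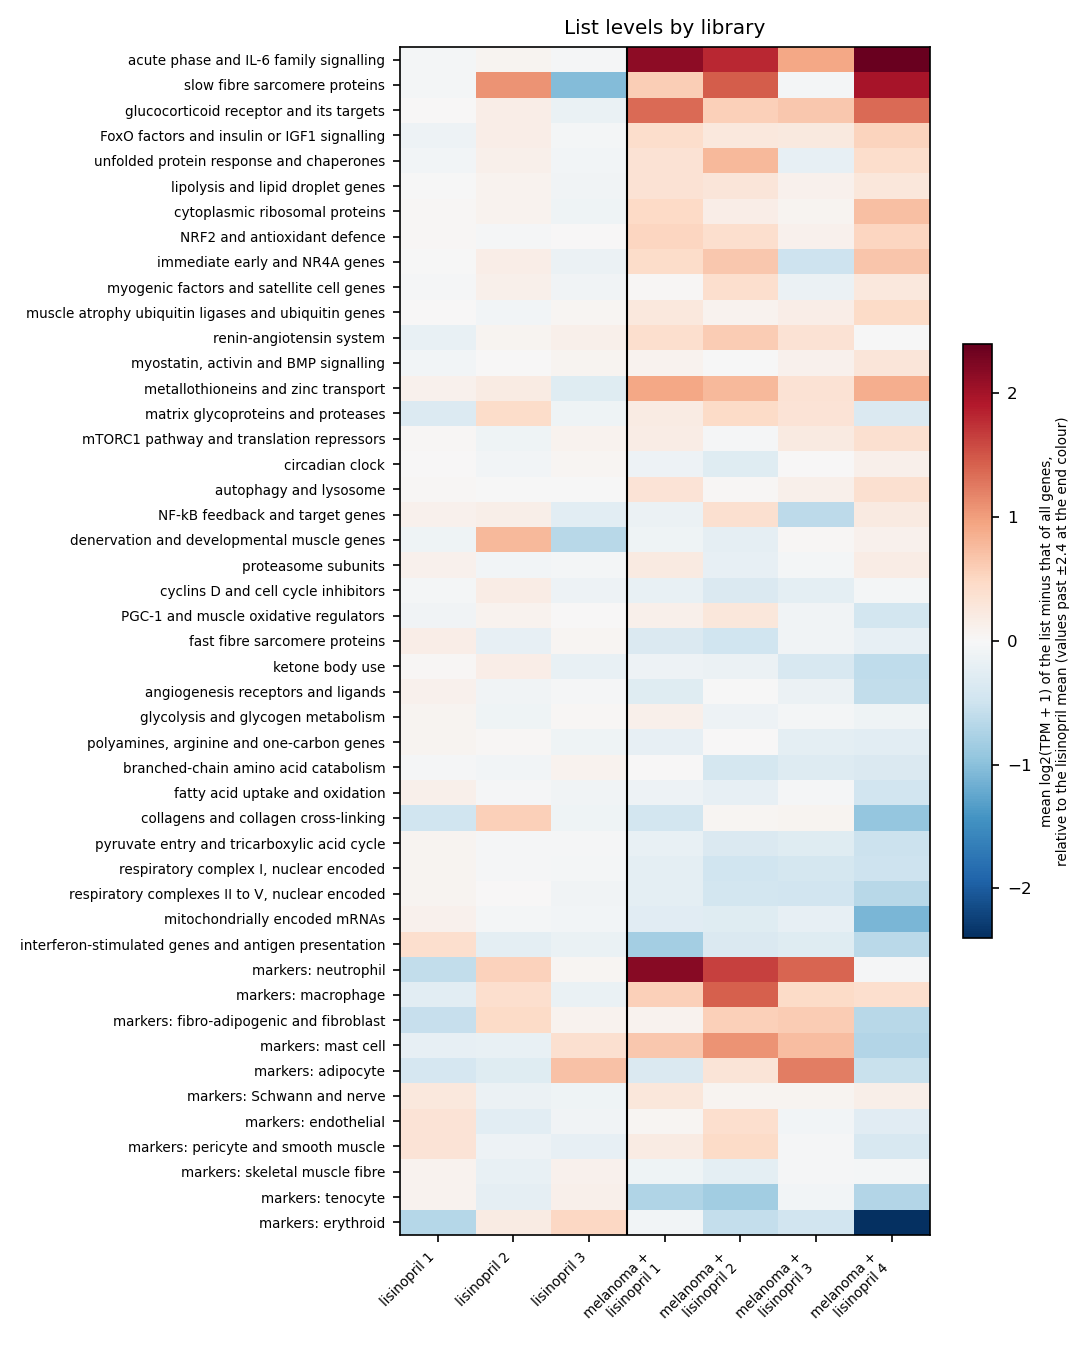
Mean log2(TPM + 1) of each list minus that of all kept genes, relative to the mean of the lisinopril libraries, for the 7 libraries (columns), with function lists above and cell type markers below. Acute phase genes reach 2.15, 1.80, 0.93 and 2.38 in melanoma plus lisinopril 1 to 4, neutrophil markers are at 2.19, 1.64, 1.39 and -0.026 in the same order, and slow fibre genes are at -0.044, 1.08 and -1.04 in lisinopril 1 to 3.

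Whether the tumour effect differed between mice with and without the drug was tested as an interaction over all 15 libraries. None of the 11254 genes passed (limma, 0%), and 140 had an unadjusted p below 0.05. The 2 comparisons share no library. Over the kept genes their log2 fold changes correlated at r = 0.777 (Pearson) and 0.763 (Spearman), across genes that are not independent. Of the 832 genes called higher with lisinopril, 98.8% also had a positive change in melanoma against control, as did 63.5% of all kept genes, and of the 122 called lower 99.2% had a negative one, as did 36.5% of all. The median change of the 832 genes was 0.90 with the drug and 0.59 without it, and the 832 genes were chosen by the first of these values.

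The arms can be set side by side for single genes. Zdhhc23, one of the 22 stable calls, changed by 2.28 with lisinopril and 0.36 without (difference 1.92 ± 0.40, unadjusted p = 2.28e-04, adjusted p = 1.00), and it was singled out after its values were seen. Inha changed by -1.47 with lisinopril and -0.15 without (difference -1.31 ± 0.37, unadjusted p = 0.00317, adjusted p = 1.00). Nr4a3 changed by 2.47 and 0.66 (difference 1.81 ± 0.60, unadjusted p = 0.00903, adjusted p = 1.00), Lipe by 0.92 and 0.13 (unadjusted p = 0.0109) and Ankrd1 by 2.55 and 0.13 (unadjusted p = 0.0149). Inha, Nr4a3, Lipe and Ankrd1 were named through their calls with lisinopril and are listed here by their small unadjusted p. Their values are therefore no separate test of a difference between the arms. For Serpina3n the changes were 5.28 and 4.85 (difference 0.44 ± 1.36), for Stat3 1.96 and 1.34 (0.62 ± 0.35), for Fkbp5 3.69 and 2.48 (1.21 ± 0.91), for Ace 1.98 and 1.62 (0.36 ± 0.60), and for Trim63 1.65 and 1.28 (0.37 ± 0.86). Fibre type genes are added here after their values were seen. Myl3 changed by 1.73 with lisinopril and -1.68 without (difference 3.41 ± 1.13, unadjusted p = 0.00884). The signs also differed for Tnnt1 (1.57 and -0.82), Tnni1 (0.99 and -1.27), Atp2a2 (1.22 and -0.16) and Myh2 (0.25 and -1.28). They were the same for Tnnc1 (2.30 and 0.047), Myh1 (0.39 and 0.38) and Myh4 (0.55 and 0.69). No adjusted p of the interaction was below 1.00 for any gene of this paragraph.

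**Figure D5:**
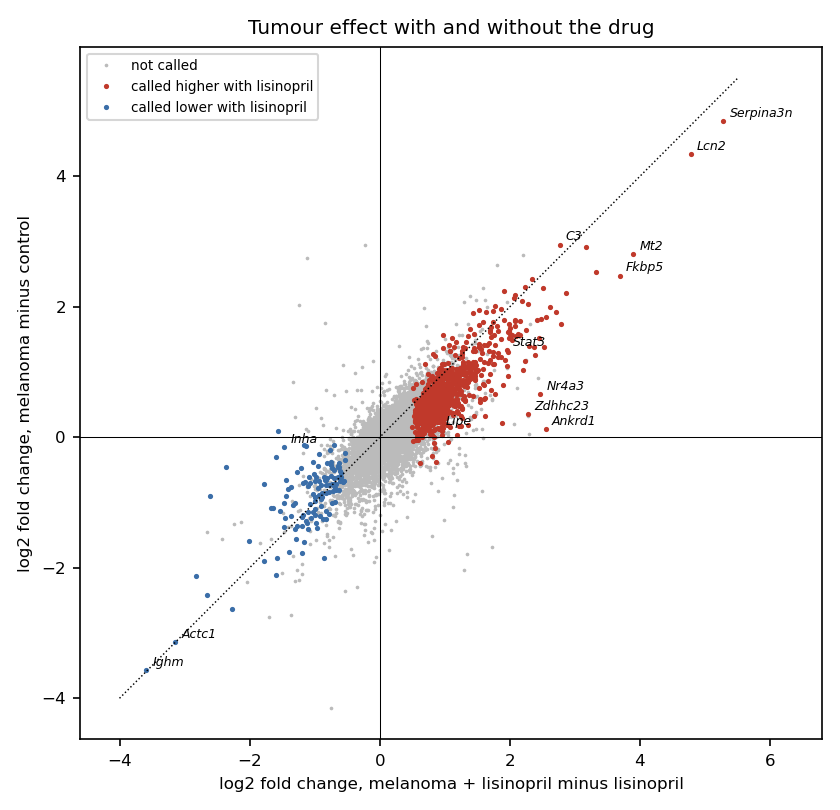
Each point is 1 of 11254 genes, with its log2 fold change for the tumour in mice given lisinopril (x axis) and in mice without the drug (y axis), red or blue where called higher or lower with lisinopril, and a dotted line of equality. Serpina3n, at 5.28 and 4.85, lies near the line, while Nr4a3 (2.47 and 0.66) and Inha (-1.47 and -0.15) lie off it.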

How the data were processed

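The authors deposited 1 table of TPM, levels scaled for length and library total, of 47643 gene symbols in the 15 libraries of the series, from stranded mRNA libraries of tibialis anterior. The submitters' processing notes name the build mm10, while the aligner is not given in the sources used here, nor is the counter. The 15 columns each sum to 1000000, so the sequencing depth behind a value is unknown and no counting interval is given.

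From these values log2(TPM + 1) was computed and tested with limma 3.58.1 in R 4.3.3 (eBayes with trend, two-sided, Benjamini-Hochberg over the 11254 genes that reached 1 TPM in 3 or more of the 7 libraries, threshold 0.05). Fold changes are on that scale, which understates those of low genes, and errors are standard errors. The minimum level can be reached through 1 group alone. Cd163, Runx1, Mmp8, Lvrn and Zdhhc23, for example, reached it only in tumour-bearing libraries, and Apln only in lisinopril libraries. Such genes were tested because of the group where they are high. The interaction was fitted over 15 libraries. The scripts were tested on simulated data.

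The rule for named genes took the 15 largest rises and the 15 largest falls among calls whose groups did not overlap and whose higher group averaged 5 TPM or more, up to 6 called members per function list, a panel of 34 genes and the cell type markers. Slow fibre genes and the 22 calls that held in every leave-one-out fit were named after their values were seen. The members and lists were chosen with earlier results of these data known. The labels call the libraries biological replicates.

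Same-numbered libraries deviated together (r = 0.136, 0.141 and 0.221 for numbers 1, 2 and 3), and libraries of unlike number had at most r = 0.0843. By the rule of more than 0.1 in every pair the replicate number was treated as a pairing in an alternative fit, the block. The main fit and its adjusted p do not use it, and no label says what the number marks. Melanoma plus lisinopril 4 has no partner and adds nothing to a blocked contrast. No 2 libraries were duplicates (highest r = 0.985). Alternatives were another pseudocount, filters, 3 scalings, no trend, sample weights, the block, all 15 libraries and each library left out. Positions are GENCODE vM21 on mm10, and promoters are RefSeq on GRCm38.p6. Some genes that the rule names are not reported here.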

Additional observations from a re-analysis of the deposited data

Results flagged for a closer look

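Among the 4 melanoma plus lisinopril libraries, 9 of 124 values tested had 1 library far from the others, by its gap to the nearest library as a share of the group's range, against Dixon's limit for 4 libraries. Chance gives about 1 such flag in 20 groups. Melanoma plus lisinopril 3 stood apart for Actc1 (0.837), Angptl2 (0.849), Map2k6 (0.843), Gabarapl1 (0.895), Prg4 (0.837), Apln (0.897) and Rps12 (0.872). Melanoma plus lisinopril 4 stood apart for Smad4 (0.910) and Chrna1 (0.850). The Gabarapl1 values were 119, 116, 42.9 and 107 TPM in melanoma plus lisinopril 1 to 4 and those of Smad4 were 33.3, 32.5, 33.98 and 52.9 TPM.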

How the results depend on the processing

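Besides the counts given in the report, the 954 calls (832 higher, 122 lower) became 74 (54 and 20) with no filter on low values, 1855 (1593 and 262) with sample quality weights, 488 (411 and 77) with the replicate block, 196 (177 and 19) in the fit of all 15 libraries, 619 (275 and 344) with median-ratio rescaling and 616 (269 and 347) with quantile normalization. With a stricter filter 79 genes were lower. Leaving out 1 library gave 24 to 1711 calls, 23 to 1457 higher and 1 to 254 lower. An alternative added after seeing the data, without melanoma plus lisinopril 4 and with median-ratio rescaling, gave 192 (108 and 84). Of 108 named calls 53 kept theirs under the block, its losses among the genes reported stand beside them in the report, Myog and Pdk4 passed with it, and it changed no other call of a named gene. The interaction had 0 calls in every setting run, with 70 to 471 genes at an unadjusted p below 0.05. The mitochondrial share difference ranged from -7.55 to -2.57 percentage points with 1 library left out.

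Only changes that had not passed turned sign. Myh2 was -0.021 after median-ratio rescaling, -0.032 after quantile normalization, -0.16 in the added alternative, and -0.42 to 0.69 with 1 library left out. In the added alternative Chrna1 was -0.16 and Mstn -0.034. Agtr1a was -0.10 after the first of these scalings, -0.13 after the second, -0.032 once the mitochondrial genome was removed, and -0.085 to 0.16 with 1 library left out. Il2rg was -0.11, -0.15 and -0.028 under those 3 scalings and -0.13 to 0.25 with 1 library left out. The cause was not tested. Depth is unknown, so what it limits could not be computed.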
